A study of Homo sapiens with 92 samples.

Results

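Ephrins and Eph receptors were followed through 10 genes, chosen by name. These were the ligand genes EFNA1, EFNA5, EFNB1 and EFNB2 and the receptor genes EPHA2, EPHA4, EPHA5, EPHA7, EPHB2 and EPHB4, which are 10 of the 48905 genes counted. Another 12 genes of the family are listed in the files. The choice used reads with a T-to-C conversion in dTAGV-1 against DMSO, in the drug from mitosis against the drug from release, and in WTC11-derived cells. Values of the 10 genes in those comparisons are therefore descriptions without a test. Tests are given for the time courses in DMSO, whose libraries are also the control arm of the drug comparisons, for the other family genes and for a list of 40 signalling partners.

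New RNA was measured by SLAM-seq, in which 4-thiouridine (4sU, 100 µM) enters RNA during transcription and iodoacetamide makes it read as C in place of T. Of the 92 libraries, all but those from WTC11 cells are of clone NIPBL-D7 of hTERT RPE-1, a line of immortalised human retinal pigment epithelium, with the genotype mGreenLantern-P2A-FKBP12(F36V)-NIPBL. NIPBL is the factor that lets cohesin extrude chromatin loops, FKBP12(F36V) is a degron that dTAGV-1 directs to degradation, and DMSO is the vehicle. By their labels all libraries, those in DMSO included, carry the tagged allele, and the RPE-1 data come from 1 clone. RPE-1 cells were synchronised with 2 mM thymidine and then 20 ng/ml nocodazole, and mitotic cells were collected by shake-off.

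In the mitosis series dTAGV-1 or DMSO was present through 120 min of nocodazole and after the release. RNA labelled with 4sU for 15 min was collected at 0 min (3 DMSO and 4 dTAGV-1 libraries), 30 min (3 per arm), 60 and 90 min (4 per arm), 120 min (4 DMSO and 3 dTAGV-1) and 4, 6 and 8 h (2 per arm). In the release series the labels give only the length of the treatment, 30, 60, 90 or 120 min, with 3 libraries per arm. In both series 3 libraries per arm were also labelled throughout the 120 min. Neurons and cardiomyocytes derived from WTC11 induced pluripotent stem cells received dTAGV-1 or DMSO for 4 h, with 4sU for 120 min and 2 libraries per arm of each cell type. They are called WTC11 cells here, as in their titles and growth protocol, although their cell line entry reads RPE-1. Nothing in the labels says whether replicates are separate cultures, so p-values measure the spread between these libraries, which may be technical.

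Ephrins are ligands held on the cell surface, and Eph receptors are the receptor tyrosine kinases that bind them on a neighbouring cell. A-type ephrins are anchored by a lipid and B-type ephrins cross the membrane, so a contact can signal into both cells. The family is known for sorting cells at tissue boundaries, for guiding axons and for separating arteries from veins. EFNB2 and EPHB4 are the best known pair in vessels, and EPHA4 binds ephrins of both types.

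Promoters of EFNB2, EPHA4 and EPHB2 are shown because these 3 genes had lower new RNA with dTAGV-1 in the release series. Each window runs from 250 bases before to 50 bases after a RefSeq start (GRCh38.p14), is written 5′ to 3′ on the strand of the gene, and has each GC box (GGGCGG, or CCGCCC where it lies on the other strand) in capitals. The lines below give EFNB2 (chr13:106535613-106535912, minus strand), EPHA4 at the start the files use (chr2:221574153-221574452, minus strand), a second RefSeq start of EPHA4 inside the gene (chr2:221572255-221572554, minus strand) and EPHB2 (chr1:22710589-22710888, plus strand).
EFNB2: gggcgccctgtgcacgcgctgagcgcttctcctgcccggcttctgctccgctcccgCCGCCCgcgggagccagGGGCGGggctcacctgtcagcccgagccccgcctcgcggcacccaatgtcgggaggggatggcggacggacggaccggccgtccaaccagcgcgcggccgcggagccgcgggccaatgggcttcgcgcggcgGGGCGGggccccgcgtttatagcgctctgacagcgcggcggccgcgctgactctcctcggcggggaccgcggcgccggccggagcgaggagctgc
EPHA4, outer start: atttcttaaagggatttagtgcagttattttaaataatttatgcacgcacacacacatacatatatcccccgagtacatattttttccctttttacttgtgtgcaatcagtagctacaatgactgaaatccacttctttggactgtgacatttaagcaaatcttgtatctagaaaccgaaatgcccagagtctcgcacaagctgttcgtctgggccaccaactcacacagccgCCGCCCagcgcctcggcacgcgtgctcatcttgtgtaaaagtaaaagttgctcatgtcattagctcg
EPHA4, inner start: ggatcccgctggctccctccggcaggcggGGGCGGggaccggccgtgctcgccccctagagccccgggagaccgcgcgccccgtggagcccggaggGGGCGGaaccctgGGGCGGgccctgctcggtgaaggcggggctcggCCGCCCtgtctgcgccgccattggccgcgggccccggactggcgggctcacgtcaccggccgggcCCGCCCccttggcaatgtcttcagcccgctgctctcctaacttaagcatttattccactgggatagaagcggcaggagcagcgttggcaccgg
EPHB2: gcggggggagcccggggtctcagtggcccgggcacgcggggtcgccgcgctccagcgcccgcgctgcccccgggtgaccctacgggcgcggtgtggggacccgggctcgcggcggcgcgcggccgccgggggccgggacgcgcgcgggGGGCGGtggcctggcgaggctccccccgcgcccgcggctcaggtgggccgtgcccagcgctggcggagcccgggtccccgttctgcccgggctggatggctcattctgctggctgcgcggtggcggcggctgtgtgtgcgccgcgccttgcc

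The windows of EFNB2 and EPHB2 are GC-rich, at 78.67% and 83.0% G and C, and hold 49 and 48 CpG dinucleotides. The median of the 35116 windows in the same table was 58.67% with 14 CpG. The outer window of EPHA4 has 43.0% G and C and 1 GC box, and its inner window has 74.33% and 5. EFNB2 has 3 GC boxes and EPHB2 has 1, and 44.95% of all windows have at least 1 on either strand. Other motifs were searched on both strands as well. EFNB2 holds CCAAT at 2 positions and TATAAA at 1, which 34.61% and 11.53% of all windows hold. None of the 4 windows holds the E-box CACGTG (7.256% of all windows do), the AP-1 motif TGACTCA (4.949%), the CRE motif TGACGTCA (1.848%) or the TEAD motif GGAATG (14.03%). The RefSeq start of EFNB2 lies 548 bases from the start in the files, and both EPHB2 and the outer EPHA4 start match it exactly.

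Converted reads per library ran from 0.420 M to 35.4 M and all reads from 10.7 M to 114 M. Levels are given as CPM, the converted reads of a gene divided by those of its library on the usual CPM scale, after TMM scaling among the libraries of a fit, and changes as log2 ratios ± SE from edgeR. In the third DMSO replicate of the mitosis series at 120 min, 10 genes held 13.4% of converted reads, and results that rest on it are also given without it. NIPBL RNA, which the degron does not target, differed between arms by −0.02 ± 0.17 to 0.17 ± 0.11 over the 4 comparisons of RPE-1 cells averaged up to 120 min or labelled for 120 min, and by 0.36 ± 0.07 at 4 to 8 h.

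The DMSO libraries of the release series did not resemble those of the mitosis series at the same minutes. On a common scale the mean levels of 10339 genes at 30 min of treatment correlated with the mitosis series at r = 0.978 for 4 h after release and at 0.835 for 30 min. At 120 min of treatment the highest correlation, 0.981, was with 6 h. These are correlations across genes, which are not independent replicates. CDK1, the main mitotic kinase, had a mean of 5.84 CPM at 30 min of treatment against 270.4 at 30 and 12.9 at 120 min after release in the mitosis series. The minutes of the release series are therefore written as minutes of treatment, and a comparison of both series at equal minutes sets side by side cells at unlike levels. EPHA4 shows the gap, with 197 to 217 CPM on that common scale at 30 min of treatment, 32.4 to 49.5 CPM at 30 min after release and 199.96 to 241 CPM at 4 h.

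In RPE-1 cells 7 of the 10 genes had enough converted reads to be tested with 15 min of 4sU. The other 3 were close to the limit of counting in all 72 of these libraries. EFNA1 had 0 to 11 converted reads per library and none in 25 libraries, EFNB1 had 0 to 11 and none in 7, and EPHA7 had 0 to 5 and none in 45. EPHB4 had the fewest of the 7 that passed, a median of 31.5 converted reads, while EPHA2 had the most, a median of 378.5. These counts compare each gene with the limit of counting and are not corrected for length. After 120 min of 4sU 9 of the 10 could be tested, all but EPHA7, which had 3 converted reads in all in either DMSO group.

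The share of a gene's reads that carried a conversion differed among the 10 genes. With 120 min of 4sU in DMSO libraries of the release series it was 67.8% for EFNA5, 51.9% for EFNB2, 51.7% for EPHA4 and 28.2% for EPHB4, pooled over 3 libraries. In the mitosis series it was 61.4%, 38.7%, 68.8% and 12.4% in the same order. EPHA5 stood at 48.7% in the release series and 25.6% in the mitosis series, and EPHB2 at 45.5% and 42.3%. Among all reads of these 12 libraries, both arms included, the share ran from 23.5% to 38.9%.

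How the 7 genes came back after mitosis was tested in DMSO, against 0 min. EPHA4 and EFNB2 rose at 60 min, EPHA4, EFNB2 and EFNA5 at 90 min, and EPHA4 and EPHB2 at 120 min, and no gene of the 7 fell at any of these times. These are 2 of 7 at 60 min, where 35.9% of 14206 genes tested changed and 22% rose. At 90 min they are 3 of 7, against 24.3% and 14.3%, and at 120 min 2 of 7, against 27.8% and 14.7%. At 30 min none of the 7 and 0% of all genes passed edgeR's test after adjustment, and none of the 7 had an unadjusted p under 0.05. The 4 comparisons share their 3 libraries at 0 min. EPHB2 was not called at 60 min in the main fit. With libraries left out it gave −0.54 to −0.25 there, and it did not pass in 4 of 5 such fits but passed as lower in the other.

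EFNB2, a transmembrane ligand, had 60.6, 42.2 and 50.02 CPM at 0 min and 100.5, 145, 105 and 97.7 CPM at 60 min. All libraries at 60 min lay above all at 0 min. It then had 82.4, 82.8, 72.6 and 83.0 CPM at 90 min and 54.6, 63.2, 46.6 and 69.3 CPM at 120 min, so that the last group overlapped 0 min again. The change was 1.12 ± 0.22 at 60 min (edgeR adjusted p = 1.87e-04, 4 libraries against 3), 0.63 ± 0.22 at 90 min (adjusted p = 0.0347) and 0.20 ± 0.23 at 120 min (adjusted p = 0.537). The call at 90 min was lost when any of replicates 1 to 4 was left out, at an adjusted p of 0.0541 to 0.199, and at 0.0567 without the library that stood apart.

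EPHA4, a receptor of axon repulsion, had 44.1, 28.1 and 50.9 CPM at 0 min and 59.4, 83.0, 71.1 and 55.8 CPM at 60 min. At 90 min it had 124, 160.1, 161 and 153 CPM, and at 120 min 136, 195, 84.9 and 175 CPM. No library from 60 min on fell within the range at 0 min. The change was 0.70 ± 0.21 at 60 min (edgeR adjusted p = 0.0111), 1.85 ± 0.21 at 90 min (9.12e-08) and 1.86 ± 0.22 at 120 min (4.77e-08). The call at 60 min was lost without replicate 2 or 3 (adjusted p = 0.0791 and 0.159). With counts of all reads the change at 60 min was 0.15 ± 0.23.

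EPHB2, a receptor for B-type ephrins, had 118, 71.4 and 126 CPM at 0 min and 179, 261, 93.2 and 236 CPM at 120 min. The library at 93.2 CPM is the one that stood apart, and the other 3 lay above 0 min. Its change was 0.89 ± 0.23 (edgeR adjusted p = 0.00366), and without replicate 2 it did not pass (adjusted p = 0.0576). EFNA5, a lipid-anchored ligand, had 52.3, 58.3 and 100.0 CPM at 0 min and 90.5, 99.5, 176 and 149.5 CPM at 90 min, with an overlap of the groups. Its change was 0.89 ± 0.31 (adjusted p = 0.0337), and it did not pass without replicate 2, 3 or 4 (0.0725 to 0.209). EPHA5 gave −0.40 ± 0.27 at 120 min, EPHA2, a receptor of epithelial cells, 0.56 ± 0.28 and EPHB4 −0.23 ± 0.35, and none of these passed.

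**Figure D1:**
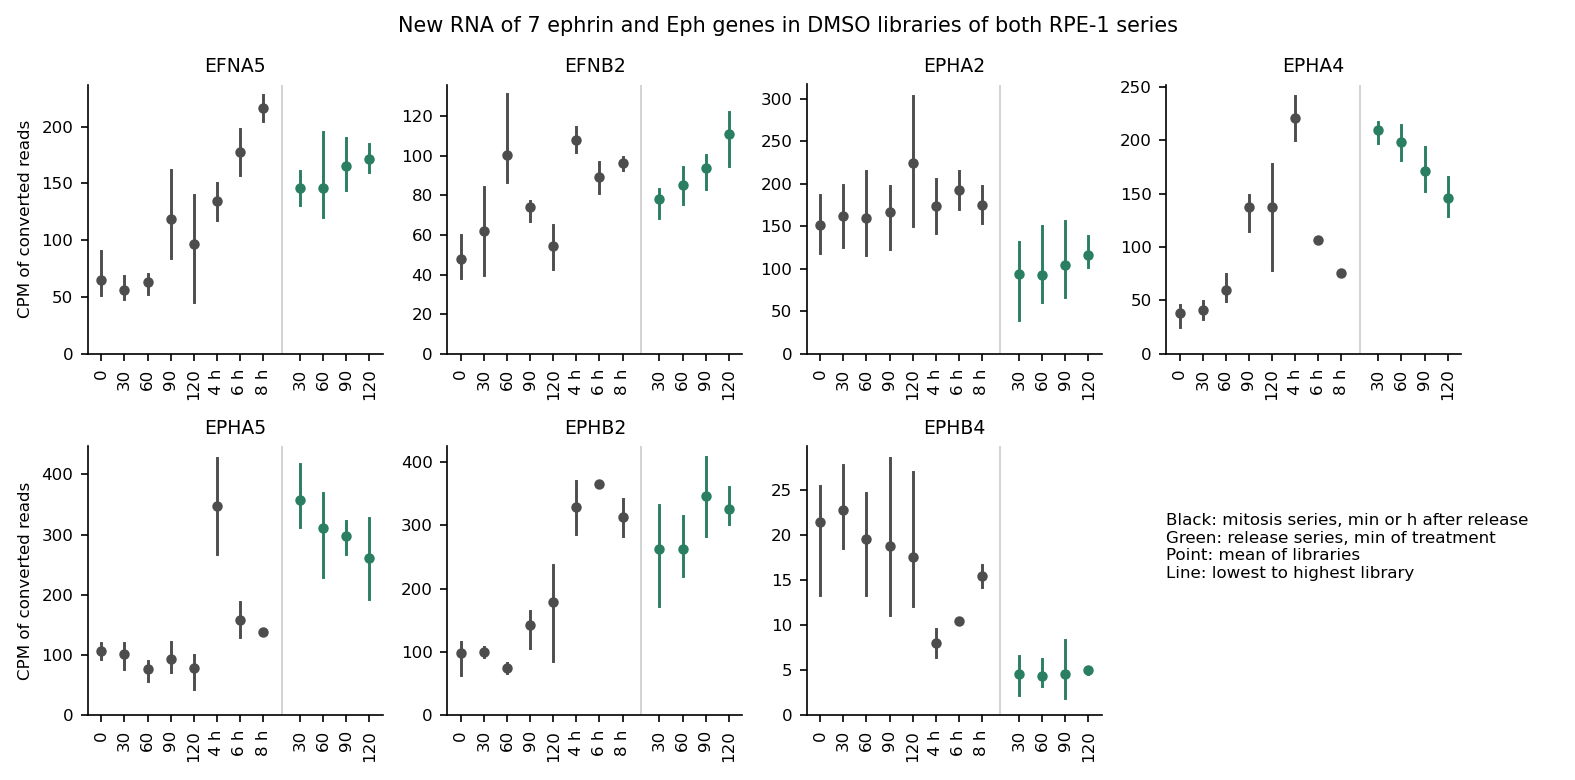
CPM of converted reads (y axis, on 1 scale for all RPE-1 libraries with 15 min of 4sU) of 7 ephrin and Eph genes in DMSO, by time after release in the mitosis series (black, min then h) and by min of treatment in the release series (green). Points are means and lines run from the lowest to the highest library of a group (n = 2 to 4). EPHA4 climbs to 4 h and is lower at 6 and 8 h, and the green EPHA4 and EPHA5 values start near the black ones at 4 h.

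From 4 h to 8 h in DMSO, EPHA4 and EPHA5 fell while EPHB4 and EFNA5 rose. These are 4 of the 7 genes, against 13.3% of 14570 genes tested, of which 6.6% rose and 6.73% fell. At 6 h against 4 h EPHA4 and EPHA5 fell, 2 of 7 against 1.12% of all genes called and 0.755% that fell. EPHA4 had 189.8 and 227 CPM at 4 h, then 97.6 and 99.7 (6 h), then 69.6 and 73.5 (8 h), with no overlap between times. Its change at 8 h was −1.54 ± 0.13 (edgeR adjusted p = 2.20e-06, 2 libraries against 2). EPHA5, a receptor best known in the nervous system, had 254 and 402 CPM at 4 h, 120.4 and 174 (6 h), and 129 and 133 (8 h). Both libraries at 4 h were above the later ones, and the change at 8 h was −1.32 ± 0.20 (adjusted p = 3.74e-04).

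EPHB4, the receptor of EFNB2 in veins, had 9.10 and 6.11 CPM at 4 h and 15.5 and 13.5 CPM at 8 h, a change of 0.90 ± 0.24 (edgeR adjusted p = 0.0191). EFNA5 had 112 and 142 CPM at 4 h and 213 and 195 CPM at 8 h, a change of 0.69 ± 0.16 (adjusted p = 0.00945). In both genes the 8 h libraries lay above the 4 h ones. EPHB4 did not pass without the second library at 4 h or without either library at 8 h (adjusted p = 0.0575 to 0.151), and EFNA5 did not pass without the first library at 4 h or at 8 h (0.077 and 0.0872). EPHB2 stayed within its spread, with 351 and 269 CPM at 4 h and 319 and 268 at 8 h (−0.08 ± 0.15, adjusted p = 0.771).

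In the release series in DMSO, EFNB2 rose from 66.2, 74.8 and 75.5 CPM at 30 min of treatment to 108, 85.7 and 109 CPM at 120 min. The groups did not overlap, and the change was 0.48 ± 0.13 (edgeR adjusted p = 0.0489), 1 of 7 genes called against 2.36% of 13927, with 1.59% higher. It did not pass when any 1 replicate was left out (adjusted p = 0.248 to 0.43) or with all reads, where it was 0.02. EPHA4 went from 210.1, 178 and 194 CPM to 154, 129 and 115 CPM, again without overlap, at −0.55 ± 0.16 (edgeR adjusted p = 0.0622), and DESeq2 called it (0.016). At 60 and 90 min of treatment none of the 7 passed in edgeR, where 0.208% and 2.51% of all genes did, and 0 and 1 of the 7 had an unadjusted p under 0.05.

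Scaling matters for these time courses. When libraries were scaled by their totals of all reads, the typical gene shifted by a median of 0.58 (60 min) and 0.36 (120 min) after release, by 0.58 at 8 h against 4 h, and by 0.56 at 120 min of treatment. The changes above are therefore relative to the typical gene. EPHA4 and EPHA5 kept their direction at 8 h against 4 h under that scaling, while EPHA2 went from −0.00 to 0.59. The share of higher genes among those called went from 61.4% to 96.3% at 60 min, from 58.9% to 91.2% at 90 min and from 52.8% to 81.9% at 120 min after release. It went from 32.5% to 76.3% at 6 h, from 49.5% to 97% at 8 h and from 67.2% to 98.9% at 120 min of treatment. In the drug comparisons it went from 20.5% to 32.3% (release series), 40.1% to 52.7% (mitosis series, 30 to 120 min), 45.8% to 35.7% (4 to 8 h) and 25.7% to 10.7% (neurons).

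With dTAGV-1 in the release series, EFNB2, EPHA4 and EPHB2 were lower than in DMSO. They are 3 of the 7 genes past an adjusted p of 0.05 on the mean over 30 to 120 min of treatment, all lower, where 2.28% of 13927 genes passed and 1.81% were lower. From here to the end of the drug values of the 10 genes, the counts restate what chose them. EFNB2 had 74.8, 79.8 and 56.6 CPM with dTAGV-1 at 30 min of treatment, beside the DMSO values above. At 60 min it had 44.0, 52.2 and 53.1 CPM with dTAGV-1 and 89.0, 78.6 and 76.0 in DMSO. At 120 min it had 59.6, 52.9 and 63.3 CPM with dTAGV-1 and 108, 85.7 and 109 in DMSO. The arms overlapped at 30 min and did not overlap at 60, 90 or 120 min. Its change was 0.01, −0.69, −0.68 and −0.78 at the 4 times and −0.53 ± 0.07 on the mean.

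EPHA4 had 215, 185 and 145 CPM with dTAGV-1 at 30 min of treatment and 210.1, 178 and 194 in DMSO. At 60 min it had 92.0, 121 and 108 CPM with dTAGV-1 and 203, 182 and 182 in DMSO, and at 120 min 77.2, 72.2 and 58.1 against 154, 129 and 115. The arms overlapped at 30 min and stood apart at 60, 90 and 120 min. The change was −0.06, −0.81, −0.87 and −0.95 at the 4 times and −0.67 ± 0.08 on the mean.

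EPHB2 came down later. At 60 min of treatment it had 163, 249 and 253 CPM with dTAGV-1 and 239, 289.7 and 221 in DMSO, which overlapped. At 120 min it had 137, 152 and 174 CPM with dTAGV-1 and 280.3, 325 and 281 in DMSO, with no overlap. The change was −0.15, −0.16, −0.49 and −0.93 at the 4 times and −0.43 ± 0.09 on the mean, and EPHB2 did not pass on the mean when any 1 replicate was left out. The 4 other genes measured gave −0.08 ± 0.14 (EPHA5), −0.07 ± 0.18 (EPHA2), 0.10 ± 0.11 (EFNA5) and 0.27 ± 0.24 (EPHB4). With counts of all reads, or with all reads as the library size, EPHA4 alone of the 7 passed.

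**Figure D2:**
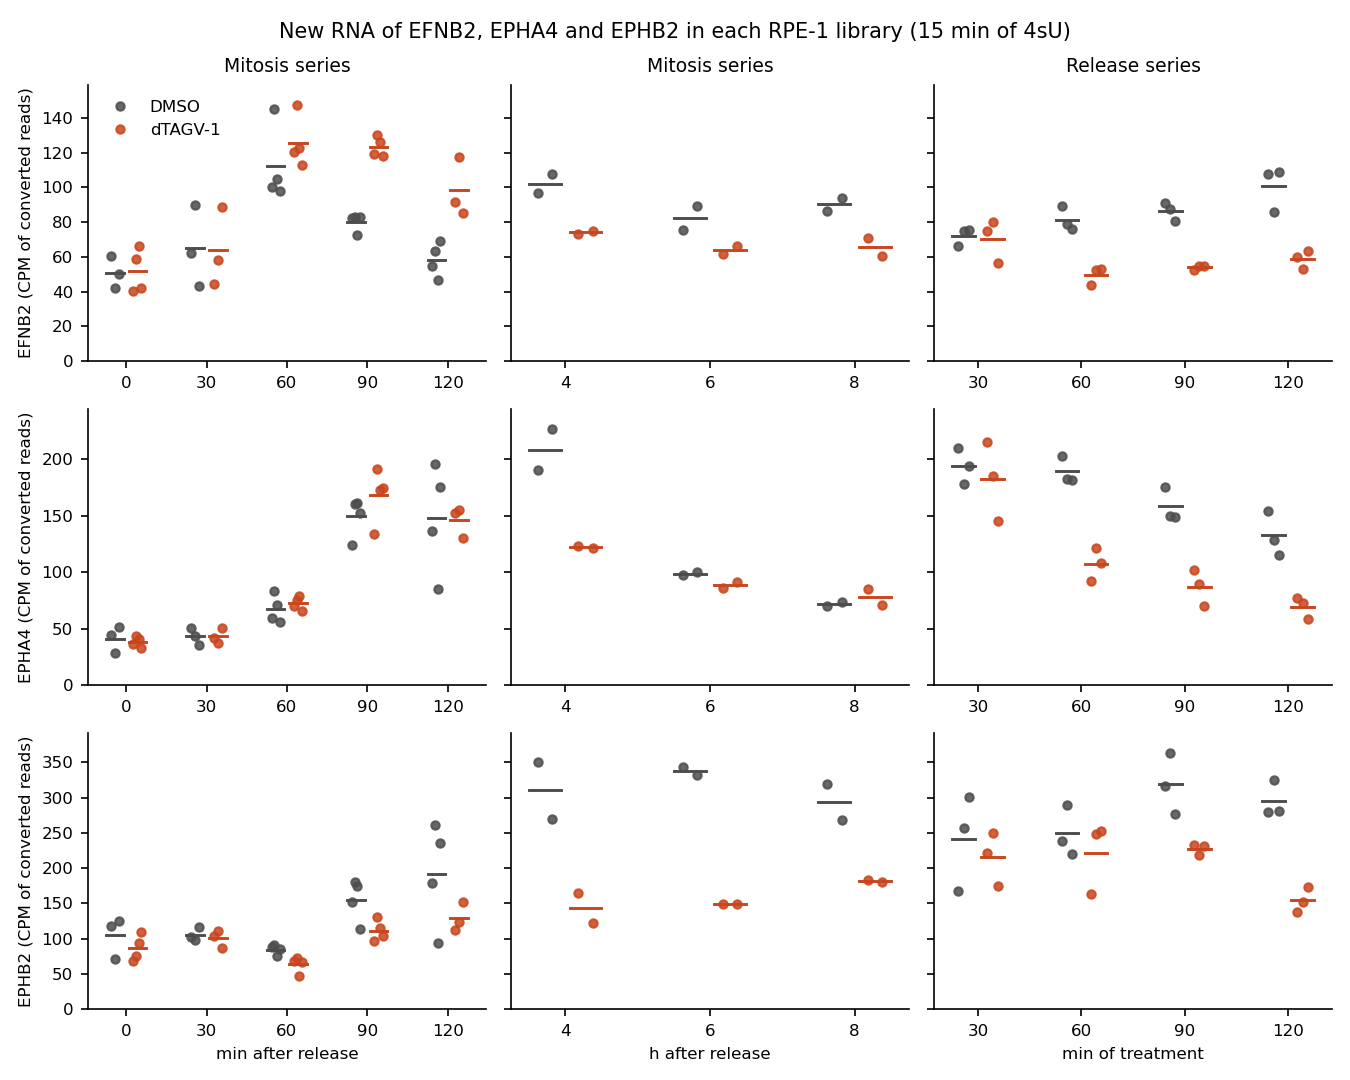
CPM of converted reads (y axis, scaled within each column of panels) of EFNB2, EPHA4 and EPHB2 in each RPE-1 library with 15 min of 4sU, by time after release (left, middle) or of treatment (right), with DMSO in black and dTAGV-1 in orange. Each point is 1 library and bars are means; EFNB2 with dTAGV-1 lies above DMSO at 90 and 120 min on the left and below it from 60 min on the right, and EPHB2 with dTAGV-1 lies below DMSO at 4, 6 and 8 h.

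When dTAGV-1 was present from mitosis, EFNB2 was higher than in DMSO. At 90 min after release it had 119, 129.9, 126 and 118 CPM with dTAGV-1 and 82.4, 82.8, 72.6 and 83.0 in DMSO. At 120 min it had 91.8, 118 and 85.2 CPM with dTAGV-1 and 54.6, 63.2, 46.6 and 69.3 in DMSO. The arms did not overlap at either time, and they overlapped at 0, 30 and 60 min. The change was −0.02, 0.16, 0.62 and 0.73 at 30, 60, 90 and 120 min and 0.37 ± 0.10 on the mean. EPHA4 did not part from DMSO beyond the spread of libraries, with 0.06 ± 0.10 on the mean. EPHB2 had 68.4, 72.2, 46.9 and 66.6 CPM with dTAGV-1 and 87.6, 90.8, 74.7 and 84.6 in DMSO at 60 min, without overlap, and a mean change of −0.39 ± 0.11. On the mean over 30 to 120 min none of the 7 genes passed an adjusted p of 0.05 in edgeR, where 1.25% of 14206 genes did, and 2 had an unadjusted p under 0.05. DESeq2 put EFNB2 and EPHB2 past it, as did edgeR with the replicate block and edgeR on unfiltered genes, and without the library that stood apart edgeR put EPHB2 past it.

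At 4 to 8 h EFNB2 was lower with dTAGV-1. It had 73.1 and 74.9 CPM against 96.5 and 107 at 4 h, 61.4 and 66.3 against 75.4 and 89.5 at 6 h, and 70.9 and 60.6 against 86.7 and 94.1 at 8 h. The arms did not overlap at any of these times, and the change was −0.43 ± 0.08 on the mean. EPHB2 had the largest change of the 7 genes, −0.99 ± 0.09 on the mean. It had 165 and 122 CPM with dTAGV-1 and 351 and 269 in DMSO at 4 h, 149 and 149 against 343 and 333 at 6 h, and 183 and 180.0 against 319 and 268 at 8 h. EPHA4 had 123 and 121 CPM with dTAGV-1 against 189.8 and 227 at 4 h, and at 8 h its 85.1 and 70.4 CPM overlapped the 69.6 and 73.5 of DMSO. Its change was −0.77, −0.15 and 0.12 at 4, 6 and 8 h and −0.27 ± 0.08 on the mean. EFNB2, EPHA4 and EPHB2, 3 of 7, were past the threshold on the mean, all lower, where 19.8% of 14570 genes were past it and 10.7% were lower. EPHA4 was not past it without the second DMSO library at 8 h, the second dTAGV-1 library at 4 h or 8 h, or the first dTAGV-1 library at 6 h, or with totals of all reads as the library size. EPHA5 gave −0.62 ± 0.20 at 4 h and 0.35 ± 0.20 at 8 h.

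The difference between both series in the change with dTAGV-1, over the times from 30 to 120 min, was 0.90 ± 0.13 for EFNB2 and 0.72 ± 0.13 for EPHA4, higher from mitosis. These were 2 of the 7 genes, against 0.0883% of 14729 genes (13 in all) and 0.0611% in that direction. EFNB2 was not past the threshold without replicate 2, and EPHA4 was not past it without replicate 1, 2 or 3. Neither was past it with counts of all reads, or with totals of all reads as the library size. EPHB2 gave 0.04 ± 0.15, and EPHB4, at −0.46 ± 0.27, had the lowest value of the 7. As described above, the DMSO libraries of both series differed at equal minutes, and the labels do not give the time after mitosis in the release series.

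Labelling for the full 120 min gave the same order of the series for EFNB2. It had 123, 107 and 107 CPM with dTAGV-1 from mitosis against 90.5, 85.4 and 104 in DMSO, and 62.3, 57.5 and 61.2 CPM with dTAGV-1 in the release series against 121, 87.2 and 98.4. The arms did not overlap in either series, and the changes were 0.27 ± 0.14 and −0.76 ± 0.14, a difference of 1.03 ± 0.20. EPHB2 was lower in both, with 146, 161 and 203 CPM against 359.6, 308 and 361 from mitosis and 231, 216 and 258 against 424, 498 and 495 in the release series. Its change was −1.01 ± 0.15 in each. EPHA4 had 186, 159.6 and 87.7 CPM against 179, 276 and 183 from mitosis, with an overlap, and 75.5, 69.1 and 61.9 against 148, 128 and 121 in the release series, without one. Past the threshold were 1 of 9 genes from mitosis (EPHB2), against 2.46% of 16571 genes and 2.05% lower, and 2 of 9 in the release series (EFNB2 and EPHB2), against 0.718% and 0.646% lower. None was past it without replicate 1 or without replicate 2, and EFNB2 was not past it without replicate 3. With counts of all reads none was past it in either series, and with totals of all reads as the library size none was in the release series. The replicate block, DESeq2 and edgeR on unfiltered genes each added EPHA4 in the release series. Their difference between series passed for none of the 9 and for 0% of all genes in edgeR. Of the 9, 1 had an unadjusted p under 0.05 for that difference, and DESeq2 put EFNB2 past the threshold.

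**Figure D3:**
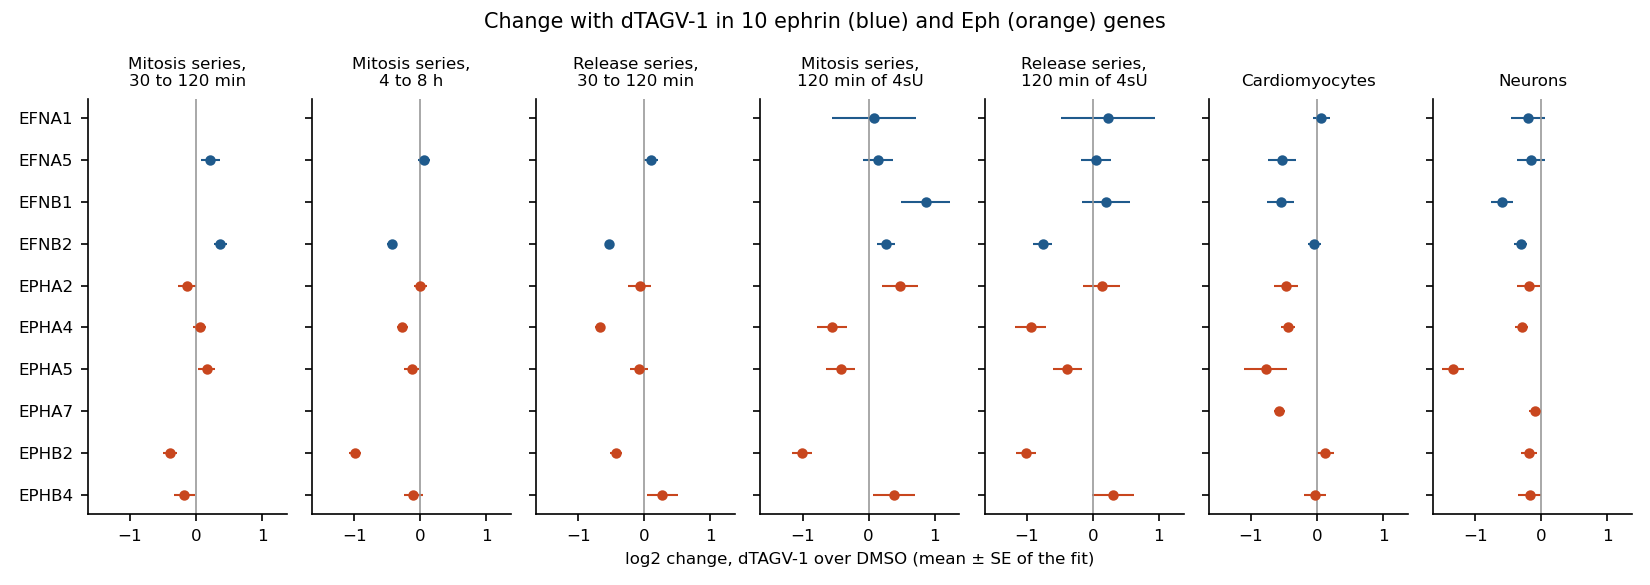
Log2 change of converted reads with dTAGV-1 over DMSO (x axis) with its SE, for the 10 genes (rows; ligands blue, receptors orange) in 7 comparisons (panels). A gene without a point had too few converted reads; EPHB2 lies left of 0 in all 5 RPE-1 panels, at −0.39 to −1.01, EFNB2 lies right of 0 from mitosis up to 120 min and left of it in the release series and at 4 to 8 h, and EPHA5 lies at −1.34 in neurons.

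In cells from WTC11 all 10 genes were measured, and each cell type expressed its own set. The cardiomyocyte markers summed to 4122 to 4461 CPM in cardiomyocytes in DMSO and to 63.4 to 65.9 in neurons, with MYL2, a ventricular marker, at 0 in both. The neuron markers summed to 2519 to 2634 CPM in neurons and 251 to 369 in cardiomyocytes. In RPE-1 cells, scaled apart, with 120 min of 4sU in DMSO they summed to 265 to 384 CPM (mitosis series) and 810 to 1869 (release series). Means there reached 10 CPM for 2 of these 10 genes, and in neurons for 9. Neural progenitor and glia markers summed to 212 to 250 CPM in neurons in DMSO and 252 to 285 with dTAGV-1. Pluripotency markers summed to 169 to 180 and 157 to 174 CPM. The part of these markers in the neuron values was not tested. EPHA5 had 82.2 and 96.4 CPM in neurons and 4.87 and 2.77 in cardiomyocytes in DMSO, a difference of 4.52 ± 0.21. EFNA1, a ligand of endothelium and epithelium, was the reverse, with 4.23 and 4.29 CPM in neurons and 58.4 and 52.6 in cardiomyocytes (−3.70 ± 0.18). EFNA5 was also lower in neurons, at 358 and 336 CPM against 827 and 766. EFNB1, EPHA7, EPHB2, EFNB2, EPHA4 and EPHA2 were higher in neurons by 1.73, 1.34, 1.14, 0.87, 0.71 and 0.63, and the libraries of the cell types did not overlap. EPHB4, at 34.7 and 39.9 CPM in neurons and 37.9 and 43.4 in cardiomyocytes, did not part beyond its spread (−0.12 ± 0.16). All but EPHB4, 9 of 10 genes, were past an adjusted p of 0.05 in edgeR, where 53.7% of 18645 genes were. How many of all genes were without overlap was not counted, so the lack of overlap has no share to stand beside. This comparison was part of the choice of the 10 genes.

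Levels of RPE-1 cells with the same length of labelling are scaled apart and stand only side by side. EPHA7 had 0 to 0.137 CPM in the DMSO libraries of RPE-1, 374 and 389 in cardiomyocytes and 946 and 985 in neurons. EFNA1 had 0.558 to 2.46 CPM in RPE-1 in DMSO. EPHB2 had 308 to 498 CPM in RPE-1 in DMSO against 188 and 202 in neurons, and EPHA2 had 166 to 379 CPM against 63.7 and 71.9.

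With 4 h of dTAGV-1, EPHA5 in neurons had 33.4 and 37.2 CPM, against 82.2 and 96.4 in DMSO. The arms stood apart and the change was −1.34 ± 0.16. It was the only 1 of the 10 past the threshold in neurons, where 2.24% of 18645 genes were and 1.66% were lower. EFNB1 had 24.02 and 30.3 CPM against 41.0 and 41.1 (−0.59 ± 0.17), EFNB2 471 and 500.1 against 585 and 621 (−0.31 ± 0.09) and EPHA4 235 and 237 against 284 and 294 (−0.29 ± 0.10), each without overlap. All 10 changes in neurons were below 0, with a median of −0.19 against 0.00 for all genes. Scaling by all reads, which moved the median of all genes by −0.12, put EFNB1 and EFNB2 past the threshold too, as did edgeR on unfiltered genes.

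In cardiomyocytes EPHA7 had 238 and 277 CPM with dTAGV-1 against 389 and 374 in DMSO, a change of −0.57 ± 0.09 without overlap. EPHA4 had 146 and 115 CPM against 175 and 178 (−0.44 ± 0.10), also without overlap. These were 2 of 10 past the threshold, both lower, where 4.83% of 18645 genes were past it and 3.65% were lower. EPHA7 was past it under every alternative run, and of the fits that left out 1 library EPHA4 was past it only without the first dTAGV-1 library of the cardiomyocytes. EPHA4 was also not past it with the replicate block or with counts of all reads. On unfiltered genes edgeR also put EFNA5 and EPHA2 past it. EPHA5, with few reads here, gave −0.78 ± 0.33, EFNA5 −0.53 ± 0.21 and EFNB2 −0.04 ± 0.09. In these libraries the 8 markers of fibroblasts and smooth muscle summed to 604 to 633 CPM in DMSO and 332 to 373 with dTAGV-1, none of them at 0. The 8 endothelial markers summed to 187 to 188 and 94.4 to 125 CPM, none of them at 0. Most of the difference in each sum lay in a few genes. KDR went from a mean of 119.8 to 57.1 CPM, ACTA2 from 269 to 133 and TAGLN from 149 to 66.2, while ERG (15.6 and 14.2), EMCN (16.6 and 14.2), COL1A1 (31.9 and 27.2) and LUM (8.71 and 7.85) differed less. The 10 cardiomyocyte markers summed to 4122 to 4461 CPM in DMSO and 4433 to 4703 with dTAGV-1, and single genes moved both ways. RYR2 went from 2122 to 2885 CPM, and TNNT2, TTN and NKX2-5 were also higher. MYH6 went from 975 to 647 CPM and MYH7 from 122 to 41.2, and MYL7, ACTN2 and TNNI3 were also lower. The part of these markers in the cardiomyocyte values was not tested. In bulk samples fewer cells of a type and less RNA per cell cannot be told apart.

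**Figure D4:**
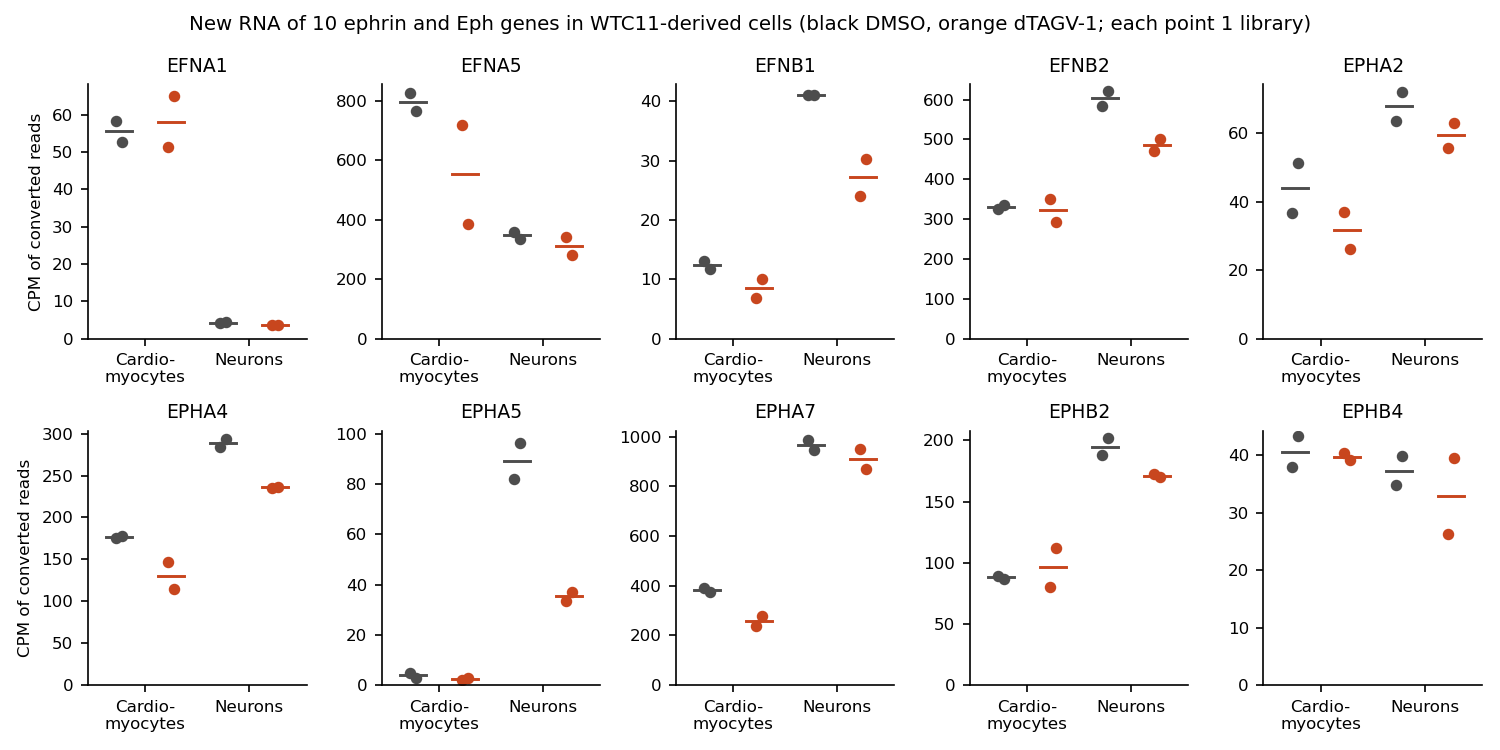
CPM of converted reads (y axis, a separate scale for each gene) of the 10 genes in each WTC11-derived library, with DMSO in black and 4 h of dTAGV-1 in orange. Points are libraries (n = 2 per group) and bars are means; EPHA5 and EPHA7 are highest in neurons, EFNA1 and EFNA5 in cardiomyocytes, and the dTAGV-1 points of EPHA5 in neurons lie at 33.4 and 37.2.

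The other 12 genes of the family are those that the choice left out, and they were tested. That choice used these comparisons, and the lists were made with earlier results known. The tests below are therefore not independent of it. In neurons 3 of the 10 that could be tested fell with dTAGV-1 and none rose, where 2.24% of all genes were called and 1.66% fell. EPHA3, EPHA6 and EPHB1 are receptors of the nervous system. EPHA3 went from 295 and 319 CPM to 125 and 132 (−1.25 ± 0.15, edgeR adjusted p = 7.41e-04), EPHA6 from 72.0 and 86.1 to 30.6 and 36.4 (−1.24 ± 0.13, 2.89e-04) and EPHB1 from 178 and 191 to 77.5 and 96.1 (−1.09 ± 0.13, 0.00113). The arms of all 3 stood apart, and none lost its call under an alternative. In cardiomyocytes EPHA6 fell from 54.1 and 56.5 CPM to 21.6 and 23.4 (−1.30 ± 0.13, adjusted p = 1.85e-04), 1 of 10 against 4.83% of all genes called and 3.65% that fell. EFNA2, EFNA3, EFNB3, EPHA1, EPHA10, EPHB3 and EPHB6 did not pass in either cell type.

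In RPE-1 cells EPHA3, EPHA6 and EPHB1 could be tested with 15 min of 4sU. At 4 to 8 h EPHB1 fell with dTAGV-1 by 0.59 ± 0.17 on the log2 scale (edgeR adjusted p = 0.0169), 1 of 3 where 19.8% of all genes were called and 10.7% fell. It did not pass in DESeq2 (adjusted p = 0.109) or without the first dTAGV-1 library at 4 h (edgeR, 0.0686). In DMSO after mitosis EPHA6 fell by 1.57 ± 0.35 at 60 min (edgeR adjusted p = 7.01e-04), by 1.04 ± 0.35 at 90 min (0.0265) and by 1.43 ± 0.37 at 120 min (0.00353). EPHB1 fell by 2.35 ± 0.73 at 60 min (edgeR adjusted p = 0.0128) and by 2.07 ± 0.79 at 120 min (0.0486), and it did not pass at 90 min (−1.29 ± 0.71, 0.186). At these times 35.9%, 24.3% and 27.8% of all genes were called. EPHA3 passed at none of these times. The calls of EPHA6 and EPHB1 in DMSO were not checked under the alternatives or with libraries left out.

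EPHA3, EPHB1 and EPHA6 are also the longest of the 10 other family genes tested in WTC11 cells, at 375, 663 and 938 kb, and the other 7 span at most 51.3 kb. In neurons these 3 changed by −1.09 to −1.25 and the 7 shorter ones by −0.38 to 0.81, and none of those 7 passed. Of the members, EPHA5 spans 351 kb, and its fall in neurons was used to choose it. The members EFNA5, EPHB2, EPHA7 and EPHA4, at 294, 211, 180 and 156 kb, gave −0.16, −0.18, −0.09 and −0.29 in neurons. In cardiomyocytes EPHA6 alone of the 3 passed, with −1.30 ± 0.13, against −0.09 ± 0.17 for EPHA3 and 0.35 ± 0.17 for EPHB1. In RPE-1 cells none of the 3 passed in the mitosis series over 30 to 120 min, where EPHA3, EPHA6 and EPHB1 gave −0.02, 0.35 and 0.52, or in the release series, where they gave −0.09, −0.09 and 0.17. Of all genes longer than 100 kb 5.00% were lower in neurons and 0.728% higher, and of the shorter genes 0.757% were lower. In cardiomyocytes 8.46% of the longer and 2.34% of the shorter genes were lower. These shares were 17.5% and 8.73% at 4 to 8 h, and 3.89% and 1.13% in the release series. In the mitosis series over 30 to 120 min they were 1.03% and 0.65%. In the same order, 2.24%, 15.0%, 0.523% and 0.891% of the longer genes were higher. Over all genes Spearman's rho between span and change was 0.01 in neurons, −0.03 in cardiomyocytes, 0.34 in the mitosis series over 30 to 120 min, 0.01 at 4 to 8 h and −0.03 in the release series.

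**Figure D5:**
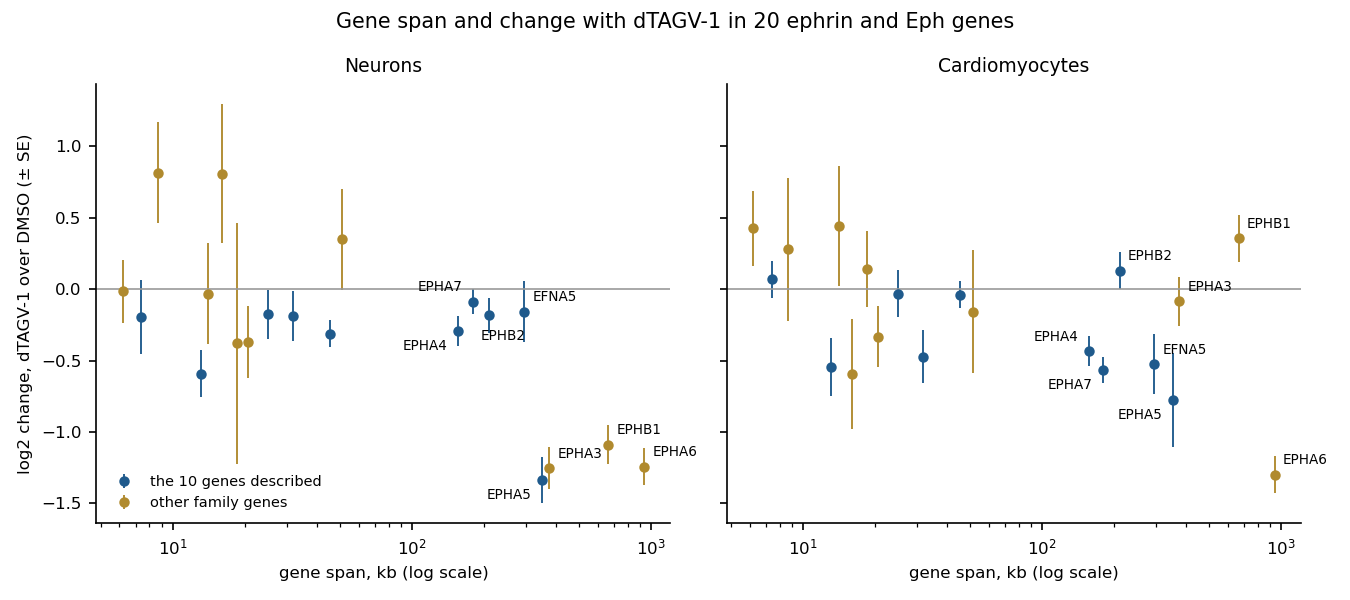
Log2 change of converted reads with 4 h of dTAGV-1 over DMSO (y axis, with SE) against the span of the gene in kb (x axis, log scale), for 20 ephrin and Eph genes in neurons (left) and cardiomyocytes (right). Blue points are the 10 genes described, which were chosen on these comparisons, and ochre points other family genes; in neurons the 4 longest genes lie at −1.09 to −1.34, while in cardiomyocytes EPHA6 alone of them is as low, at −1.30.

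The 40 signalling partners are kinases, adaptors, exchange factors and phosphatases that act with Eph receptors or ephrins. In the release series 3 of 40 fell with dTAGV-1 and none rose, where 2.28% of all genes were called and 1.81% fell. PXN, the focal adhesion adaptor paxillin, fell by 0.54 ± 0.11 (edgeR adjusted p = 0.00469), FYN, a Src family kinase, by 0.38 ± 0.09 (0.0238) and RASA1, a Ras GTPase activator, by 0.34 ± 0.08 (0.0229). None of the 3 passed without replicate 1, without replicate 2, or with counts of all reads. Over 30 to 120 min from mitosis PXN was the only partner of 40 called, where 1.25% of all genes were, at −0.44 ± 0.09 (adjusted p = 0.00525), and it did not pass without replicate 1 or 4 (0.0665 and 0.057).

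In DMSO 3 of 40 partners rose and 11 fell at 60 min against 0 min. Of all 14206 genes 35.9% were called, 3131 higher and 1969 lower. The share called in either direction was thus near that of all genes, but most called partners fell at 60 min while most called genes rose. With totals of all reads as the library size, 6416 of all genes were called higher at 60 min and 245 lower. At 90 min 4 partners rose and 2 fell, and at 120 min 2 rose and 8 fell, where 24.3% and 27.8% of all genes were called. At 8 h against 4 h 5 rose and 5 fell of 37, where 13.3% of all genes were called. At 4 to 8 h 8 of 37 partners rose and 7 fell with dTAGV-1, where 9.07% of all genes rose and 10.7% fell. The largest changes were in GRIP1, a PDZ scaffold of B-type ephrins, at 0.81 ± 0.20 (edgeR adjusted p = 0.00695), and in SDCBP, the scaffold syntenin, at 0.61 ± 0.09 (1.05e-04). FYN fell by 0.55 ± 0.08 (4.06e-05) and the kinase gene ABL2 rose by 0.51 ± 0.07 (3.02e-05). With counts of all reads GRIP1 and SDCBP did not pass. The list had a median change of 0.02 against 0.01 for all genes.

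In cardiomyocytes 1 partner rose and 3 fell of 40, where 4.83% of all genes were called and 3.65% fell. The phosphatase gene PTPN13 rose by 0.42 ± 0.08 (edgeR adjusted p = 0.0105), and the exchange factor genes VAV3 and KALRN and the kinase gene FYN fell by 0.58 ± 0.14 (0.0379), 0.43 ± 0.10 (0.0318) and 0.46 ± 0.09 (0.014). In neurons PTPRO, a receptor phosphatase, fell by 0.68 ± 0.12 (0.00916) and VAV3 by 0.65 ± 0.14 (edgeR adjusted p = 0.0311), 2 of 40 where 2.24% of all genes were called and 1.66% fell. Leaving out 1 library ended the call of PTPN13 (without the second DMSO library of the cardiomyocytes), of FYN (without the first) and of KALRN and VAV3 in cardiomyocytes (without the second DMSO or second dTAGV-1 library, or any neuron library). In neurons PTPRO and VAV3 did not pass when any 1 neuron library was left out. With 120 min of 4sU no partner of 37 passed in edgeR in either RPE-1 series. There, 8 of 37 from mitosis and 6 of 37 in the release series had an unadjusted p under 0.05. DESeq2 called 4 and 2 partners or other family genes there.

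The counts do not state whether strand was used. EPHA5 shares 870 bases with RP11-408P14.1 on the other strand, whose converted reads over all libraries come to 56.6% of those of EPHA5, and 535 bases with EPHA5-AS1 (6.84%). In neurons RP11-408P14.1 gave 0.21 ± 0.22 with dTAGV-1 (edgeR adjusted p = 0.80) and EPHA5-AS1 −0.96 ± 0.23 (0.0566). EPHB4 shares 702 bases with SLC12A9, at 63.5% of its reads, so the small values of EPHB4 are uncertain. At 8 h against 4 h in DMSO, where EPHB4 rose, SLC12A9 gave 0.69 ± 0.30 (edgeR adjusted p = 0.150). Whether reads of SLC12A9 enter the rise of EPHB4 was not tested. Few neighbours within 500 kb had enough reads to test, in cardiomyocytes 1 of EFNB2, 1 of EPHA4 and 3 of EPHA5, and none near these 3 genes was called in a drug comparison. Near EPHB2, at 4 to 8 h, KDM1A, a histone demethylase gene, fell by 0.36 ± 0.07 (adjusted p = 0.00139) and ZBTB40 rose by 0.31 ± 0.08 (0.0107).

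Across the 24 RPE-1 groups with 15 min of 4sU, the genes whose mean levels were most like those of EPHB2 were PTPRE, HMGA2 and JARID2, at r = 0.969, 0.966 and 0.963 among 10338 genes. For EPHA5 they were MAP2, RIMS1 and CTB-111H14.1 (0.977, 0.971 and 0.967), and for EPHA2 CSNK1E, BCAR1 and MED22 (0.928, 0.920 and 0.902). Among the 7 genes EFNA5 and EPHB2 were the most alike (0.773), and EPHA5 and EPHB4 the most opposed (−0.918). These groups share libraries, scaling and the difference between both series described above, and the values are descriptions.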

How the data were processed

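Per the file headers, the authors deposited, for each library and gene, the count of reads with a T-to-C conversion and the count of all reads, with T positions covered and their conversion rate as a fraction. The submitters' processing notes name HISAT, Picard, HTSeq and hg38, and strand use is not given in the sources used here. The deposited fraction was not tested. Of 49186 genes 281 were left out (Y-linked genes and those of X inactivation). Converted counts were fitted with edgeR 4.0.16 in R 4.3.3 (quasi-likelihood test, TMM scaling, Benjamini-Hochberg over all genes, two-sided, threshold 0.05). The filter was filterByExpr with a minimum count of 10 and a minimum total count of 15. It does not ask for 10 reads in every library. Separate fits covered the mitosis series to 120 min, 4 to 8 h, the release series, both together, 120 min of 4sU, and WTC11 cells. CPM are on the scale of their fit. Alternatives were DESeq2 1.42.0, other scaling, all reads, no filter, a replicate block and left-out libraries. The fits were tested on simulated data.

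The members and lists were chosen with earlier results of these data known. The text names the 10 members, the other family genes that could be tested, up to 4 called partners with the largest change per main comparison, the 3 genes most like each of the 3 highest members, and NIPBL. CDK1, genes overlapping or near a member, and marker genes were added after values were seen. Replicate numbers come from the labels. Among times with 3 or more same-numbered pairs of arms, every pair correlated over 0.1 at 0 min in the mitosis series (0.195 to 0.564), at 120 min of treatment (0.238 to 0.422) and for 120 min of 4sU in the mitosis series (0.152 to 0.581), and not at the other times. At 30 min of the mitosis series, with 2 pairs, the correlations were 0.272 and 0.466. The main fits have no block.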

Additional observations from a re-analysis of the deposited data

Results flagged for a closer look

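EFNB2 in DMSO at 60 min of the mitosis series had 145 CPM in replicate 2, with the other 3 libraries at 97.7 to 105 CPM. At 90 min replicate 3 had 72.6 CPM, with the others at 82.4 to 83.0 CPM. Each stood apart from its group by more than Dixon's 95% limit, 2 of 42 sets of 4 libraries, where chance gives about 1 in 20.

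The ratio of mean CPM with dTAGV-1 over DMSO lay on opposite sides of 1 in the mitosis and release series, with every dTAGV-1 library of one series above and every one of the other below the mean of its DMSO group. For EFNB2 it was 1.12, 1.54 and 1.68 at 60, 90 and 120 min in the mitosis series and 0.613, 0.626 and 0.581 in the release series. For EPHB4 it was 0.798 and 0.773 at 90 and 120 min in the mitosis series and 1.37 and 1.71 in the release series. The difference at each single time was not tested, and the choice of the genes used these comparisons.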

How the results depend on the processing

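Among the 7 members tested in DMSO, the count called at 120 min against 0 min was 2, and 4 with the replicate block and 4 with all reads as the library size. At 120 against 30 min of treatment it was 1, and 0 with DESeq2 size factors, 0 with counts of all reads, 0 without the filter, 2 in DESeq2 and 2 with the replicate block. When libraries were left out it was 1 to 2 at 60, 90 and 120 min against 0 min, 0 at 120 min of treatment and 2 to 4 at 8 h. EPHA2 at 8 h against 4 h turned from −0.00 to 0.59 (edgeR adjusted p = 0.0314) with all reads as the library size, which moves all genes up.

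Counts of partners and other family genes called with dTAGV-1 moved more. They were 5 in cardiomyocytes (1 with counts of all reads, 1 with the replicate block, 2 to 8 with a library left out), 5 in neurons (3, 3 and 3 to 6), 16 at 4 to 8 h (10 with all reads, 12 to 16 with a library left out) and 3 in the release series (0 with all reads, 0 with all reads as the library size, 0 to 3 with a replicate left out). From mitosis, 30 to 120 min, the count was 1, with 0 under all reads, 0 with all reads as the library size, 2 without the filter, 2 with the block and 0 to 1 with a library left out. For 120 min of 4sU it was 0 in both series, with 4 in DESeq2, 3 without the filter and 4 with the block from mitosis, and 2, 2 and 4 in the release series, where a left-out replicate gave 0 to 1. The causes were not tested. Of the other comparisons of single genes, 1660 counted as the same, 112 lost the call, 11 gained it and 45 moved. For members with dTAGV-1, the same means a change within the pooled SD of libraries from the main fit, whatever the call. Calls that members lost or gained with dTAGV-1 are therefore not in these counts. In DMSO a turned sign without a call also counted as the same. EPHB4, with a median of 31.5 converted reads, is limited by depth.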
